A study of Homo sapiens with 4 samples.

Results

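Death receptors are the cell surface receptors of the tumour necrosis factor (TNF) family that can start apoptosis, and their adaptors are the cytosolic proteins that couple them to caspases. The 10 genes described here were chosen by name: 5 receptors with a death domain (FAS, TNFRSF10A, TNFRSF10B, TNFRSF1A and TNFRSF21), TNFRSF10D and TNFRSF12A, which lack a working one, the adaptors FADD and TRADD, and the inhibitor CFLAR. All 10 are among the 60595 genes of the deposited table, and 9 passed the filter of 1 FPKM or more in at least 2 libraries, which 15511 genes passed. FPKM is a level scaled for transcript length and library size. RNA sequencing compared A375, an established human melanoma cell line labelled WT, after exposure to DMSO, the solvent control, or to paroxetine hydrochloride (PH), a serotonin reuptake inhibitor, with 2 libraries per group. The sources used here give neither dose nor time of exposure. Nor do the labels say whether each library was a culture of its own: the p-values cover the spread between these 4 samples and no more, and that spread may be technical.

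Ligands of the TNF family bind receptor trimers. FAS and the TRAIL receptors TNFRSF10A and TNFRSF10B recruit FADD through their death domains, and FADD in turn recruits procaspase-8. CFLAR, which resembles caspase-8 but lacks its activity, competes for FADD. TNFRSF1A, the main TNF receptor, recruits TRADD instead, first in a complex at the membrane that signals to NF-kappaB and later in a cytosolic complex that can hold FADD and caspase-8. Melanoma cells commonly carry TRAIL receptors and differ widely in whether their ligand kills them.

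After PH, 5 of the 9 tested genes had changed and no change reached 2-fold in the group means. TNFRSF10B and TRADD rose 1.41-fold and 1.47-fold. TNFRSF21, FADD and TNFRSF12A fell, to 0.61, 0.681 and 0.691 of their DMSO means. FAS, TNFRSF10A, TNFRSF1A and CFLAR did not pass the test. A gene counts as changed at a Benjamini-Hochberg adjusted p under 0.05 in limma, which 38.6% of all genes tested reached, 18.1% upward and 20.5% downward. In RNA from whole cultures, fewer cells of a type and less RNA per cell cannot be told apart. The median log2 change was -0.09 over the 9 genes and -0.0047 over all genes tested.

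The FPKM values summed to 606197 to 655607 per library, with 15021 to 15223 genes at 1 FPKM or more. The table does not give read numbers, and the relative depth estimated from low values was 0.874 to 1 across libraries. Of 9 melanocyte lineage markers, SOX10 rose from 193 and 181 FPKM with DMSO to 275 and 271 FPKM with PH (limma adjusted p = 0.00165) and S100B fell from 5.09 and 6.66 to 1.89 and 2.70 FPKM (0.0134). MITF stood at 7.23 and 7.73 FPKM with DMSO and at 5.36 and 5.98 FPKM with PH. It was lower in both PH libraries but not called (limma adjusted p = 0.0829). S100A1, not called either, stood at 3.76 and 6.06 FPKM with DMSO and at 4.73 and 3.87 FPKM with PH (0.683). S100A1 shares 235 of 3030 exonic bases with S100A13 on the opposite strand. The pigment cell genes TYR, DCT, TYRP1, MLANA and PMEL stayed under 1 FPKM in every library, TYR at 0 throughout, so the pigment markers of the labelled cell type were at or near 0. The 12 markers of other cell types summed to 2.59 to 7.63 FPKM, with CDH1 at 0 in all libraries. KRT14 was the only one tested and fell, from 3.59 and 5.76 to 0.920 and 1.03 FPKM. The part of these marker differences in the results was not tested.

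**Figure D1:**
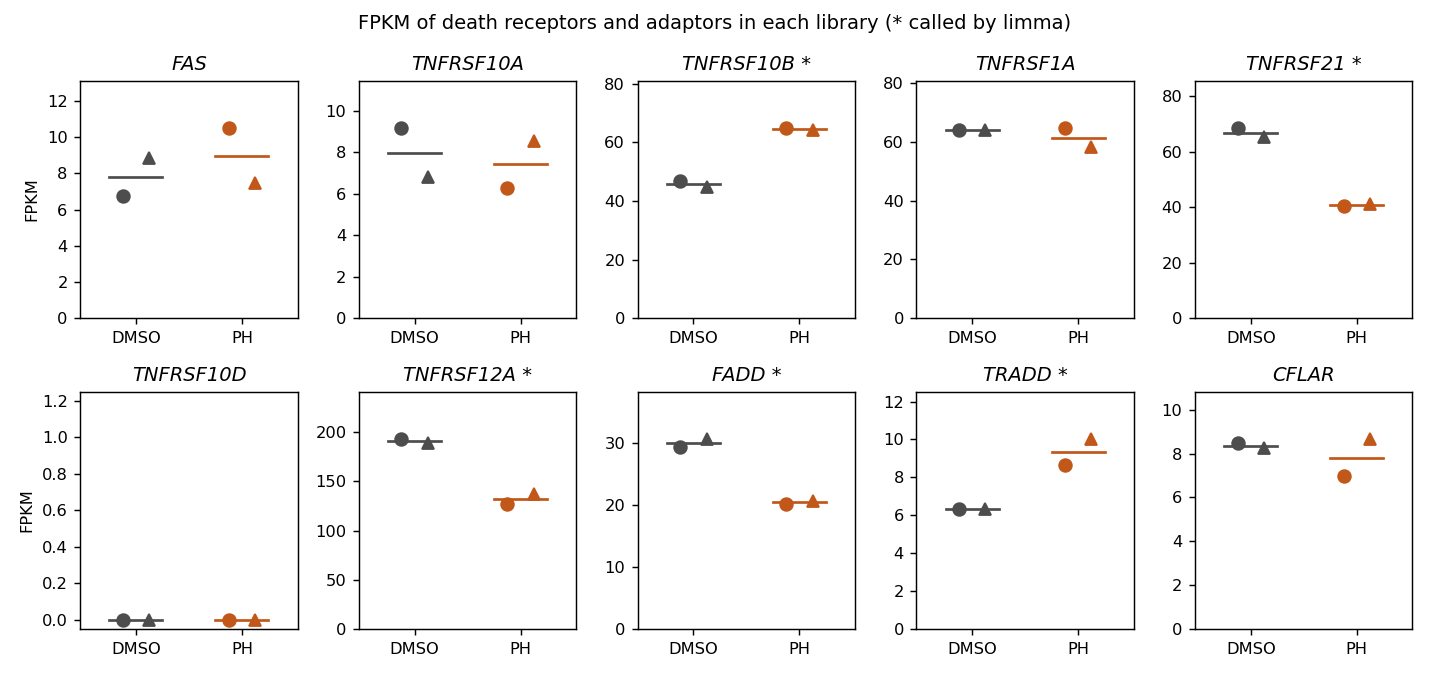
FPKM of each of the 10 genes (vertical axes start at 0, except for TNFRSF10D, whose values are all 0) in the 2 DMSO and 2 PH libraries, with circles for replicate 1, triangles for replicate 2 and lines for group means. The PH points lie above both DMSO points for TNFRSF10B and TRADD, and below them for TNFRSF21, TNFRSF12A and FADD; for FAS, TNFRSF10A, TNFRSF1A and CFLAR the ranges of the groups overlap.

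TNFRSF10B, the TRAIL receptor known as DR5, had levels of 46.8 and 44.7 FPKM with DMSO and of 64.7 and 64.1 FPKM with PH. Both PH values lay above both DMSO values, and the libraries of each group were within 1.05-fold of each other. Its mean went from 45.8 ± 1.5 to 64.4 ± 0.449 FPKM (SD, n = 2), a log2 change of 0.48 ± 0.06 (SE; limma adjusted p = 0.00292). A log2 change here is a difference of log2(FPKM + 1), which understates the change of genes with low values. The gene (ENSG00000120889) lies on the minus strand of chromosome 8, 23020133 to 23069179 in GRCh38, and shares 67 of its 5158 exonic bases with RHOBTB2 on the opposite strand (8.79, 7.82, 7.87 and 6.08 FPKM).

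TNFRSF10A, the other TRAIL receptor with a death domain, known as DR4, was listed at 9.15 and 6.83 FPKM with DMSO and at 6.28 and 8.55 FPKM with PH. The groups overlapped, and within each group the libraries differed 1.34-fold and 1.36-fold. The log2 change was -0.10 with a 95% interval of -0.60 to 0.41 (limma adjusted p = 0.734). TNFRSF10B exceeded TNFRSF10A in every library, by 5.12 and 6.54 times with DMSO and by 10.3 and 7.49 times with PH. Both belong to a cluster of TRAIL receptor genes on chromosome 8 that also holds the decoy receptors TNFRSF10D and TNFRSF10C. TNFRSF10A shares 266 of 2951 exonic bases with AC100861.1 and 224 with TNFRSF10A-AS1, both on the opposite strand. These stood at 2.61 to 4.76 and 3.17 to 5.38 FPKM.

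TNFRSF10D, whose truncated death domain cannot recruit FADD, was listed at 0 in all 4 libraries and was not tested. Of 76 protein-coding ribosomal protein genes, which every cell uses, 0 were listed at 0 throughout, while 3664 of 19922 protein-coding genes were. These counts do not show whether TNFRSF10D, or any other gene listed at 0, was truly without RNA. TNFRSF10C, a decoy receptor without a cytoplasmic domain, was named from the table after its values were seen. It stood at 0.164 and 0.275 FPKM with DMSO and at 1.04 and 0.723 FPKM with PH, below the filter. The TRAIL receptor genes are close paralogs, and the sources used here do not say how reads that match several genes were assigned.

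FAS, the receptor for FAS ligand, was listed at 6.74 and 8.87 FPKM with DMSO and at 10.5 and 7.47 FPKM with PH. Both groups spread widely, 1.32-fold and 1.4-fold between their libraries, and they overlapped. The log2 change was 0.17 with a 95% interval of -0.34 to 0.68 (limma adjusted p = 0.537), so neither a rise nor a fall was detected with these libraries. FAS (ENSG00000026103; chromosome 10, 88990582 to 89015785, plus strand) shares 380 of 4253 exonic bases with the actin gene ACTA2 on the opposite strand, which stood at 5.16 to 6.84 FPKM.

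TNFRSF1A was listed at 64.2 and 63.8 FPKM with DMSO and at 64.5 and 58.3 FPKM with PH. PH replicate 1 lay above both DMSO libraries and PH replicate 2 below them. The log2 change was -0.06 with a 95% interval of -0.23 to 0.11 (limma adjusted p = 0.532), the narrowest interval among the members that did not pass the test, and it turned to 0.0095 after quantile normalization. TNFRSF1A (ENSG00000067182; chromosome 12, 6328757 to 6342114, minus strand) shares no exon with another annotated gene.

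TNFRSF21, a death domain receptor known as DR6 and studied mostly in neurons and lymphocytes, was listed at 68.3 and 65.4 FPKM with DMSO. In the PH libraries it stood at 40.3 and 41.2 FPKM, well below both, with libraries of a group within 1.05-fold of each other. The mean fell from 66.8 ± 2.1 to 40.8 ± 0.603 FPKM (SD, n = 2), a log2 change of -0.70 ± 0.06 (SE; limma adjusted p = 0.00110) and the largest change among the 9 genes. The gene (ENSG00000146072; chromosome 6, 47231532 to 47309905, minus strand) has a single annotated transcript and no exonic overlap with another gene.

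TNFRSF12A, known as Fn14, is the receptor of the cytokine TWEAK; it has no death domain and signals through TRAF proteins. It was the most abundant of the 10 genes in every library, at 193 and 189 FPKM with DMSO and at 127 and 137 FPKM with PH. Its mean fell from 190.8 ± 2.88 to 132 ± 6.85 FPKM (SD, n = 2), a log2 change of -0.53 ± 0.06 (SE; limma adjusted p = 0.00221), and the groups were far apart. Averaged over the libraries its level was at the 97.1th percentile of the genes tested. It is encoded on the plus strand of chromosome 16 (ENSG00000006327; 3018445 to 3022383) and shares 40 of 1848 exonic bases with CLDN6, which was at 0.133 FPKM or less.

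FADD, the adaptor shared by FAS and the TRAIL receptors, was listed at 29.4 and 30.7 FPKM with DMSO and at 20.3 and 20.7 FPKM with PH. The PH libraries lay below both DMSO libraries, and replicates agreed within 1.04-fold. The mean went from 30.0 ± 0.893 to 20.5 ± 0.282 FPKM (SD, n = 2), a log2 change of -0.53 ± 0.07 (SE; limma adjusted p = 0.00398). FADD (ENSG00000168040; chromosome 11, 70203163 to 70207390, plus strand) has 1841 annotated exonic bases, of which 1011 are shared with AP000879.1, an antisense RNA. AP000879.1, named after its values were seen, was listed at 34.1 and 35.8 FPKM with DMSO and at 28.5 and 25.5 FPKM with PH, a log2 change of -0.36 ± 0.08 (SE; limma adjusted p = 0.0208); its call was lost without a filter, without the trend and without DMSO replicate 1, DMSO replicate 2 or PH replicate 2 (0.0508 to 0.109). The sources used here do not give the strand setting behind these values, so the reads of FADD and of this RNA cannot be told apart.

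TRADD, the adaptor of TNFRSF1A, was listed at 6.35 and 6.33 FPKM with DMSO and at 8.67 and 10.0 FPKM with PH. Its DMSO libraries were within 1.00-fold of each other and its PH libraries differed 1.16-fold, with both PH values above both DMSO values. The mean rose from 6.34 ± 0.0137 to 9.34 ± 0.956 FPKM (SD, n = 2), a log2 change of 0.49 ± 0.12 (SE; limma adjusted p = 0.0292). The call was lost when any of the 4 libraries was left out, with adjusted p = 0.111 without DMSO replicate 1, 0.113 without DMSO replicate 2, 0.0604 without PH replicate 1 and 0.130 without PH replicate 2, and also without a filter on low values (0.0664). TRADD (ENSG00000102871; chromosome 16, 67154180 to 67160298, minus strand) shares 126 of 2567 exonic bases with FBXL8 on the opposite strand, which stood at 5.82 to 7.86 FPKM.

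CFLAR, which encodes the caspase-8 inhibitor c-FLIP, was listed at 8.46 and 8.24 FPKM with DMSO and at 6.98 and 8.65 FPKM with PH. PH replicate 1 was the lowest library and PH replicate 2 the highest, so the groups overlapped. The log2 change was -0.09 with a 95% interval of -0.44 to 0.25 (limma adjusted p = 0.635). CFLAR (ENSG00000003402; chromosome 2, 201116104 to 201176687, plus strand) has 25 annotated transcripts, 18 of them coding, and the table gives their sum. The long and short c-FLIP proteins were therefore not told apart. CFLAR shares 777 of 22529 exonic bases with CFLAR-AS1 and 1488 with IMPDH1P10 on the opposite strand, and 445 with AC007283.1 on the same strand. Each stood at 1.75 FPKM or less.

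**Figure D2:**
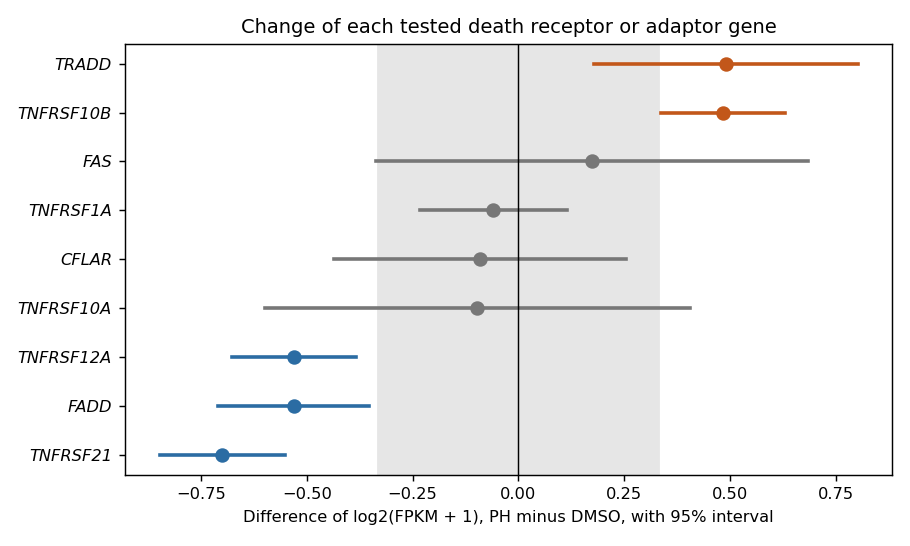
Difference of log2(FPKM + 1), PH minus DMSO, for the 9 tested genes, with points for the estimate and lines for the 95% interval of limma; orange genes rose, blue genes fell and grey genes did not pass the test, and the shaded band reaches 0.33, the median absolute change of all genes tested. TNFRSF21 has the largest fall, -0.70, and the intervals of TNFRSF10A and FAS are the widest of the genes that did not pass.

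The 9 changes were moderate beside the rest of the transcriptome. The median absolute log2 change of all genes tested was 0.33 and the 90th percentile was 0.94, a size that none of the 9 reached. In 71.6% of all genes tested both PH libraries lay on one side of both DMSO libraries, as they did for the 5 genes that changed. With 2 libraries against 2 an exact permutation test of a single gene cannot go below p = 0.333, so calls rest on the variance that limma shares across genes.

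Promoter windows are shown for TNFRSF21 and FADD, which fell, and for TNFRSF1A, whose DMSO level was close to that of TNFRSF21, as the genes with a single window in the table. Each window runs from 250 bases before to 50 after the RefSeq start site, 300 bases in all, 5′ to 3′ on the gene's strand in GRCh38.p14. The windows are chr6:47309856-47310155 on the minus strand for TNFRSF21, chr11:70203046-70203345 on the plus strand for FADD and chr12:6342027-6342326 on the minus strand for TNFRSF1A. Capitals mark matches, on either strand, to any of the motifs searched.
TNFRSF21: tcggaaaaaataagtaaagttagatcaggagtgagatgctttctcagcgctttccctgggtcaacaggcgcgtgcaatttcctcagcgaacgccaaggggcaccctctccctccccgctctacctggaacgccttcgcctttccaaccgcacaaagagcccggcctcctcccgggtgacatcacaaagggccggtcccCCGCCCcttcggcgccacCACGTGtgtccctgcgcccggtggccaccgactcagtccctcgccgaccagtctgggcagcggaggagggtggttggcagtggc
FADD: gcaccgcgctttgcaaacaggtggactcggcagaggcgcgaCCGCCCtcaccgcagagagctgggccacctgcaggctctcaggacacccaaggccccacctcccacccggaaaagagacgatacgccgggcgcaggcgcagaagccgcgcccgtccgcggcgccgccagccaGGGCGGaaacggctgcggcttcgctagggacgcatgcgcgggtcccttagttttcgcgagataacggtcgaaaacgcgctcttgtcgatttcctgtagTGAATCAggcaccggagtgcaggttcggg
TNFRSF1A: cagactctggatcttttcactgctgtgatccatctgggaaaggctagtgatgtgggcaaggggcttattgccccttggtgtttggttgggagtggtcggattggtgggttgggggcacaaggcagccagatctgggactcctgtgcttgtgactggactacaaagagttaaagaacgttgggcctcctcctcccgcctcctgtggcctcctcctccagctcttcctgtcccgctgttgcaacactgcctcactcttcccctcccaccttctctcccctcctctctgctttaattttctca

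The 8 motifs were the CHOP-ATF composite (TGATGCAA), the CRE (TGACGTCA), AP-1 (TGANTCA), NF-kappaB (GGGNNTTCC), the E-box (CACGTG), the GC box (GGGCGG), the TATA box (TATAAA) and E2F (TTTCCCGC). The TNFRSF21 window holds a GC box and an E-box, the FADD window a pair of GC boxes and an AP-1 match just after the start site, and the TNFRSF1A window none of these letters. Windows of FAS and CFLAR, which did not pass the test either and have several start sites, hold GC box, AP-1 and NF-kappaB matches. Among the 5 genes with a window, the matches therefore do not separate TNFRSF21 and FADD from the genes not called. No window was found for TNFRSF10B, TRADD, TNFRSF12A, TNFRSF10A or TNFRSF10D, so the promoters of these genes were not searched. GC boxes are in 45.0% of the 35116 promoter windows of the table, AP-1 matches in 7.71%, E-boxes in 7.26%, TATA boxes in 11.5%, NF-kappaB matches in 6.58%, CREs in 1.85%, E2F matches in 1.63% and the CHOP-ATF composite in 0.866%, counting both strands. A match is a description of the letters and does not show that a factor binds.

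Since FPKM is scaled for length, the levels of different genes can be set side by side within a library. In both DMSO libraries the order was TNFRSF12A, TNFRSF21, TNFRSF1A, TNFRSF10B and FADD, followed by 4 genes between 6.33 and 9.15 FPKM. Of these TRADD was the lowest in both DMSO libraries, while FAS and TNFRSF10A changed places around CFLAR. TNFRSF21 and TNFRSF1A were close, at 68.3 and 65.4 against 64.2 and 63.8 FPKM. In both PH libraries TNFRSF10B was at position 2 and TNFRSF21 at position 4. TNFRSF10B and TNFRSF1A then overlapped, at 64.7 and 64.1 against 64.5 and 58.3 FPKM. The 4 low genes stood between 6.28 and 10.5 FPKM with PH, and their neighbours in the order did not separate.

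The summed FPKM of the 5 death domain receptors chosen by name was 195 and 189.6 with DMSO and 186 and 179.6 with PH. TNFRSF25 and NGFR, which also have a death domain, were not part of this sum. TNFRSF25 stood at 13.2 and 16.2 FPKM with DMSO and at 25.8 and 23.6 FPKM with PH, above FAS and TNFRSF10A in every library. NGFR stood at 1.51 and 1.67 against 0.609 and 0.501 FPKM. The lower sum with PH therefore does not show a fall over all death domain receptors. Within the sum, the makeup shifted between TNFRSF21 and TNFRSF10B. TNFRSF21 held 35.01% and 34.5% of the sum with DMSO and 21.6% and 22.9% with PH, and TNFRSF10B 24.0% and 23.6% against 34.7% and 35.7%. TNFRSF1A held 32.5% to 34.6% in all 4 libraries, and FAS and TNFRSF10A each 3.37% to 5.62%. These are shares of RNA and not of receptor protein on the surface.

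**Figure D3:**
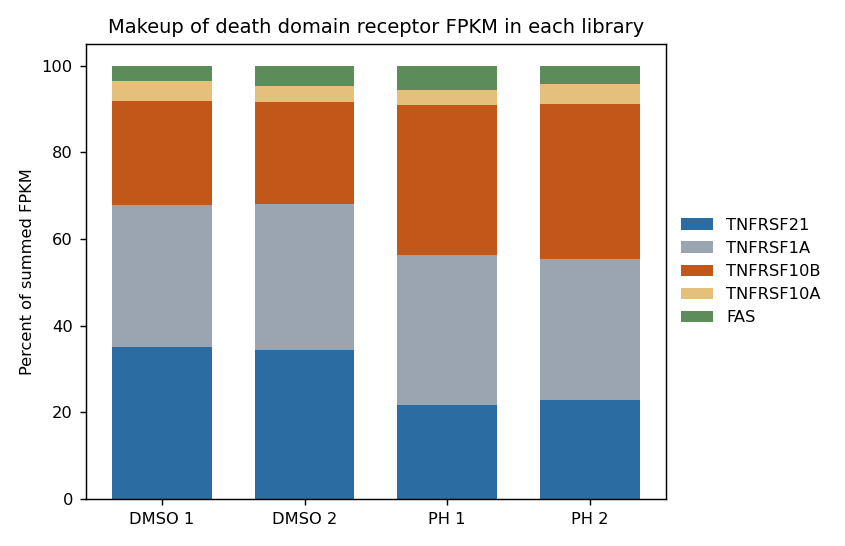
Share (percent) of the summed FPKM of the 5 death domain receptors chosen by name held by each gene in each library, with 1 stacked bar per library. TNFRSF25 and NGFR are not included. The TNFRSF21 segment shrinks from 35.01% and 34.5% with DMSO to 21.6% and 22.9% with PH, while the TNFRSF10B segment grows from 24.0% and 23.6% to 34.7% and 35.7%.

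TNFRSF10B and its adaptor FADD moved in opposite directions. TNFRSF10B was 1.59 and 1.46 times FADD in the DMSO libraries and 3.19 and 3.10 times FADD in the PH libraries. The ratio of TNFRSF10B to CFLAR was 5.54 and 5.42 with DMSO and 9.27 and 7.41 with PH. FADD to CFLAR went the other way, from 3.48 and 3.72 to 2.90 and 2.39. Between the adaptors, TRADD was 0.216 and 0.206 of FADD with DMSO and 0.428 and 0.485 with PH. The ratio of FAS to CFLAR, 0.797 and 1.08 with DMSO against 1.5 and 0.863 with PH, overlapped between the groups. Among receptors, TNFRSF10B was 0.685 and 0.684 of TNFRSF21 with DMSO and 1.60 and 1.56 times TNFRSF21 with PH, and 0.730 and 0.700 of TNFRSF1A against 1.00 and 1.10 times. TNFRSF1A was 10.1 times its adaptor TRADD in both DMSO libraries and 7.45 and 5.82 times with PH. These ratios were not tested. The reads of FADD and of AP000879.1 cannot be told apart, so the ratios with FADD are uncertain to that extent.

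**Figure D4:**
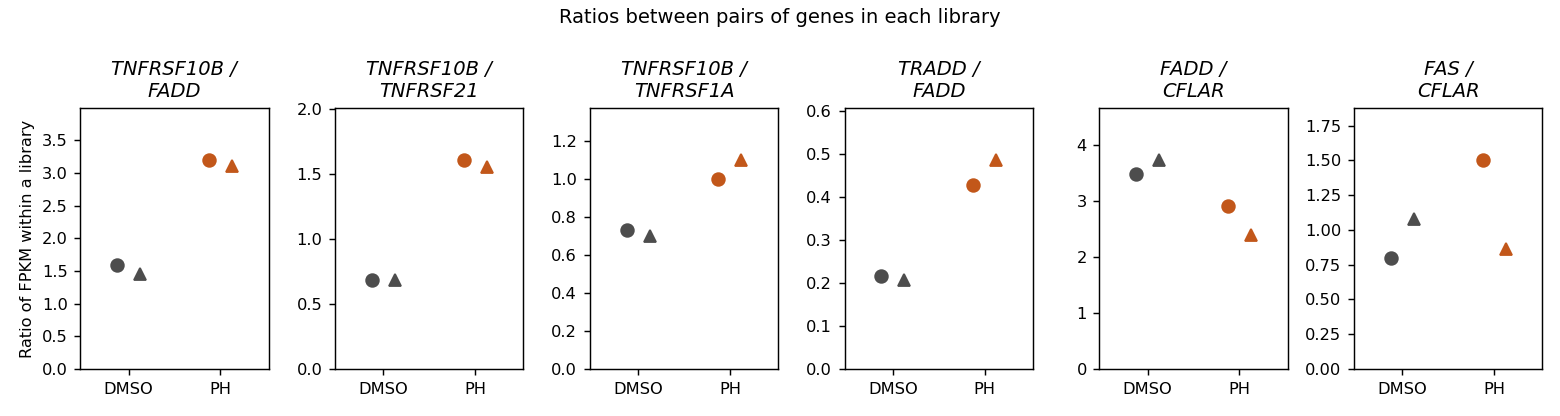
Ratio of FPKM between pairs of genes within each library (vertical axes start at 0), for the DMSO and PH libraries, with circles for replicate 1 and triangles for replicate 2. TNFRSF10B to FADD moves from 1.59 and 1.46 to 3.19 and 3.10, and FAS to CFLAR overlaps between the groups. The FADD values may include reads of AP000879.1.

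The ligands of FAS, the TRAIL receptors and TNFRSF1A were scarce. FASLG and TNFSF10, which encode FAS ligand and TRAIL, were listed at 0 in all 4 libraries, and TNF stood at 0.147 to 0.225 FPKM. Of 18 ligand genes of the TNF superfamily 4 were tested, and 3 rose, against 18.1% of all genes tested. The median log2 change of the tested 4 was 0.84 (-0.0047 over all genes). CD70, the ligand of CD27, rose from 74.6 and 66.3 to 129 and 144.7 FPKM (limma adjusted p = 0.00136). TNFSF9, the 4-1BB ligand, rose from 7.81 and 8.93 to 25.8 and 23.9 FPKM (0.000707). TNFSF12, which encodes the TWEAK ligand of TNFRSF12A, rose from 1.78 and 1.34 to 2.72 and 3.89 FPKM (0.0471). The TNFSF12 call was lost after quantile normalization (limma adjusted p = 0.0566) and with a pseudocount of 0.1 (0.0507). The same held without a filter (0.132), with the replicate number as a block (0.0733) and without any 1 of the 4 libraries. In these last fits the log2 change was 0.55 to 0.94. TNFSF13, a B cell factor, stood at 1.53 and 1.66 FPKM with DMSO and 0.690 and 1.00 FPKM with PH (0.119).

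Of 22 other receptors of the family 11 were tested, 4 rose and NGFR fell. Over all genes tested 18.1% rose and 20.5% fell. The median log2 change of the 11 was 0.44. TNFRSF14, the receptor HVEM of lymphocyte signalling, rose most, from 2.55 and 2.61 to 10.1 and 9.28 FPKM (limma adjusted p = 0.00109). TNFRSF25, the death domain receptor DR3, rose from 13.2 and 16.2 to 25.8 and 23.6 FPKM (0.00816), and shares 383 of 4283 exonic bases with ESPN on the opposite strand and 104 with PLEKHG5 on the same strand. TNFRSF19, which has no death domain, rose from 11.4 and 10.6 to 16.3 and 16.1 FPKM (0.00953). NGFR, the neurotrophin receptor with a death domain, fell from 1.51 and 1.67 to 0.609 and 0.501 FPKM (0.0392). The NGFR call was lost without a filter (limma adjusted p = 0.0619) and with the replicate number as a block (0.0702). It was also lost without any 1 library, where the log2 change was -0.79 to -0.69. TNFRSF19 lost its call without DMSO replicate 2 or either PH library (0.0523 to 0.058), and TNFRSF25 without PH replicate 1 (0.0578). RELT and EDA2R, not called, averaged 7.62 and 2.04 FPKM with DMSO and 6.64 and 3.02 FPKM with PH. LTBR, the lymphotoxin receptor and a chromosomal neighbour of TNFRSF1A, was named after its values were seen: it rose from 67.0 and 61.3 to 84.4 and 90.05 FPKM (0.00742).

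Downstream, 2 of 15 caspases and direct regulators rose and 4 fell, against 18.1% and 20.5% of all genes tested. Their median log2 change was -0.04. CASP8, the initiator caspase that FADD recruits, was singled out for its role after its values were seen. It stood at 16.4 and 17.0 FPKM with DMSO and at 15.2 and 16.1 FPKM with PH (limma adjusted p = 0.469), which is 1.86 to 2.18 times CFLAR in all 4 libraries. BID, which caspase-8 cleaves to reach mitochondria, fell from 17.1 and 13.4 to 10.2 and 10.9 FPKM (0.0414). CASP8AP2, a caspase-8 partner also needed for histone RNA processing, fell from 9.68 and 9.78 to 5.42 and 5.46 FPKM (0.00604), and DFFA, the inhibitor of the caspase-activated DNase, from 27.8 and 26.9 to 19.9 and 20.0 FPKM (0.00758). The BID call was lost without a filter (limma adjusted p = 0.102), without the trend (0.0703) and with the replicate number as a block (0.0536). It was also lost without DMSO replicate 1 or either PH library, where the log2 change was -0.52 to -0.32. The DFFA call was lost without DMSO replicate 1, where its log2 change was -0.41. DEDD2, a nuclear death effector domain protein, rose from 17.6 and 16.7 to 31.0 and 28.2 FPKM (0.00226). FAF1 and DEDD, not called, averaged 66.1 and 31.0 FPKM with DMSO and 59.2 and 38.2 FPKM with PH.

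Of 27 genes of the TNFRSF1A membrane complex and its ubiquitin enzymes, 8 rose and 3 fell, against 18.1% and 20.5% of all genes tested. Their median log2 change was 0.16. TNFAIP3, the ubiquitin-editing enzyme A20 that restrains this complex, rose from 3.86 and 5.29 to 14.8 and 15.3 FPKM (limma adjusted p = 0.00173). Its binding partner TNIP1 rose from 38.2 and 41.4 to 58.3 and 62.7 FPKM (0.00319), and TRAF1, an adaptor induced by NF-kappaB, from 2.62 and 3.10 to 4.91 and 5.52 FPKM (0.0222). MAP3K5, the stress kinase ASK1, fell from 3.01 and 3.13 to 1.39 and 1.37 FPKM (0.0197). TRAF1 and MAP3K5 each lost their call without a filter and without any 1 library, with adjusted p = 0.064 to 0.105 and 0.0639 to 0.0896 in limma. BIRC2 and MAP3K7, not called, averaged 40.2 and 24.9 FPKM with DMSO and 44.6 and 20.3 FPKM with PH.

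Of 4 necroptosis genes RIPK3 and ZBP1 were listed at 0 in every library. MLKL, the executor of necroptosis, stood at 9.54 and 9.02 FPKM with DMSO and at 9.23 and 7.61 FPKM with PH (limma adjusted p = 0.467), and the adaptor TICAM1 at 11.4 and 9.40 against 11.2 and 12.8 FPKM (0.316). Of 4 tested IAP genes and antagonists, XIAP, a direct caspase inhibitor, rose from 14.8 and 12.2 to 20.5 and 18.0 FPKM (0.0323) and HTRA2, a mitochondrial protease that binds it, from 31.7 and 32.1 to 38.3 and 37.5 FPKM (0.0303). The XIAP call was lost without a filter, without the trend and without DMSO replicate 2 or either PH library (adjusted p = 0.0629 to 0.15 in limma). The HTRA2 call was lost without the trend (limma adjusted p = 0.0847), with the replicate number as a block (0.0607) and without any 1 library. In these last fits the log2 change was 0.23 to 0.26. The list's median log2 change was 0.19, and of all genes tested 18.1% rose. DIABLO and BIRC6, not called, averaged 42.4 and 25.5 FPKM with DMSO and 44.7 and 27.9 FPKM with PH.

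Among 10 genes of receptor and c-FLIP turnover, 4 rose and 2 fell, against 18.1% and 20.5% of all genes tested. Their median log2 change was 0.23. ADAM17, the protease that sheds TNFRSF1A, rose from 20.5 and 20.7 to 31.5 and 30.7 FPKM (limma adjusted p = 0.00286), and USP8, an endosomal deubiquitinase, from 33.9 and 28.4 to 42.3 and 49.97 FPKM (0.0189). ADAM10, which sheds FAS ligand, fell from 85.9 and 75.2 to 60.4 and 57.4 FPKM (0.0113). USP8 lost its call without a filter, without the trend and without DMSO replicate 2 or PH replicate 2 (adjusted p = 0.0524 to 0.0932 in limma), and ADAM10 without DMSO replicate 1 or PH replicate 2 (0.0524 and 0.0658). CAV1, the caveolar coat protein, fell most, from 171 and 159 to 41.6 and 39.9 FPKM (0.000189). RNF41 and ERAP1, not called, averaged 34.5 and 29.2 FPKM with DMSO and 40.2 and 31.9 FPKM with PH.

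Of 17 transcription factors that have been studied at the promoters of these genes or in the same pathways, 10 rose and 4 fell. Over all genes tested 18.1% rose and 20.5% fell. The median log2 change of the list was 0.51. DDIT3, which encodes CHOP, described in human cells as an activator of TNFRSF10B, went from 12.3 and 14.7 to 133 and 128 FPKM, the largest log2 change of the list at 3.18 ± 0.10 (SE; limma adjusted p = 0.000189). Its change was far above the 0.48 of TNFRSF10B, and a link between these genes was not tested. ATF3, a stress-induced factor, rose from 3.56 and 3.73 to 17.9 and 15.2 FPKM (0.000636) and EGR1, an immediate early factor, from 4.28 and 4.00 to 16.5 and 18.7 FPKM (0.000563). E2F1, which drives S-phase genes, fell from 22.2 and 20.4 to 4.94 and 3.89 FPKM (0.000613). NFKB1 and SP1, not called, averaged 36.8 and 32.0 FPKM with DMSO and 35.96 and 34.7 FPKM with PH. DDIT3 shares 355 of its 1307 exonic bases with MARS on the opposite strand, ADAM17 shares 1323 of 10750 with IAH1, and ADAM10, DEDD, DFFA, DIABLO, ERAP1, HTRA2, RELT and SOX10 also share exonic bases with an expressed gene on the opposite strand, so the values of all these genes are uncertain to that extent.

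**Figure D5:**
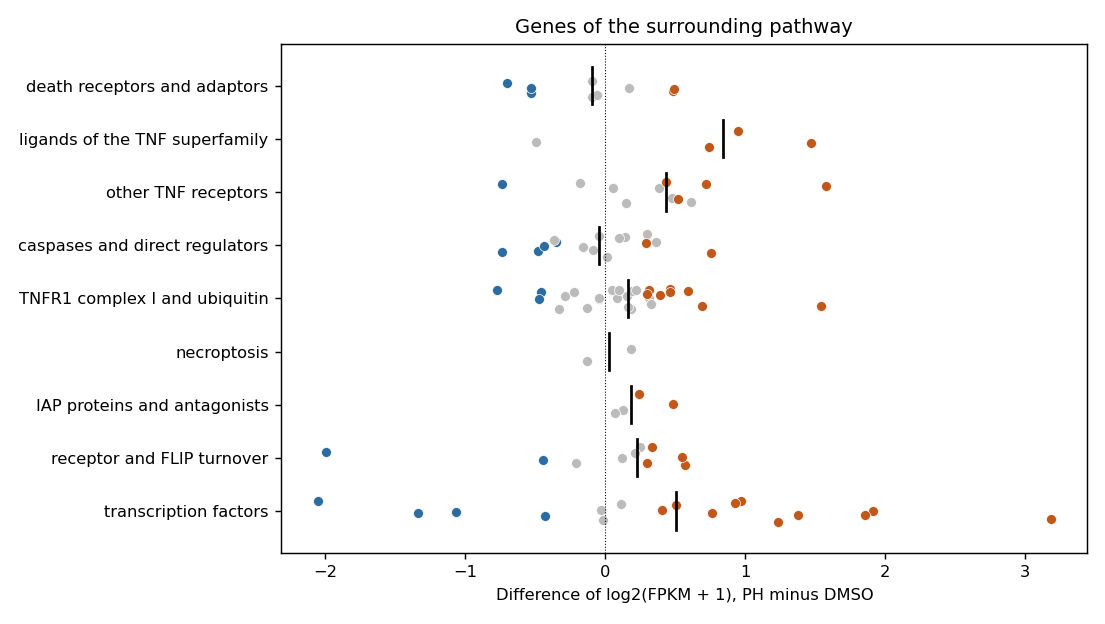
Difference of log2(FPKM + 1), PH minus DMSO, of each tested gene by list, with orange for genes that rose, blue for genes that fell, grey for genes not called and black bars for list medians. The 9 death receptors and adaptors lie between -0.70 and 0.49, while DDIT3 among the transcription factors reaches 3.18 and CAV1 among the turnover genes -1.99.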

How the data were processed

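The deposited values are gene FPKM computed by the authors. The tools were CASAVA 1.4, HISAT2 2.1.0 and Cufflinks 2.2.1 with hg38, per the submitters' processing notes; the sources used here do not give the annotation, strand setting, scaling between libraries or treatment of reads matching several genes. The 4 FPKM columns were matched to samples by name, and 12 other per-sample columns, whose names do not match a sample's labels, were not used. Genes reaching 1 FPKM in 2 or more libraries were compared, PH against DMSO, on log2(FPKM + 1) with limma 3.58.1 (mean-variance trend, two-sided moderated test, 2 residual and 3.32 prior degrees of freedom, Benjamini-Hochberg adjustment across all genes tested, threshold 0.05). The script was tested on simulated data with known changes. Depth was estimated from the commonest ratio between libraries among values under 1 FPKM of genes with a locus to themselves, giving 1 and 0.912 for the DMSO and 0.874 and 0.962 for the PH libraries.

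The 10 genes and the pathway lists were chosen with earlier results of these data known. From each list the text names up to 4 called genes with the largest absolute change and up to 2 uncalled genes with the highest level; other genes are said to be named after their values were seen. Some genes of the lists are not reported here. Lists were matched by symbol, with LTBR and MARCH8 found through their Ensembl identifiers. Locations and exon overlaps are from GENCODE release 29 on GRCh38, and promoter windows, found for 5 of the 10 genes, from RefSeq (GRCh38.p14). Alternatives were other scalings, another pseudocount (0.1), no filter or a minimum of 5 FPKM, limma without the trend, the replicate number as a block, and each library left out. Scripts ran in R 4.3.3 and Python 3.11.15 (pandas 2.3.3); figures were drawn with matplotlib 3.10.9.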

Additional observations from a re-analysis of the deposited data

How the results depend on the processing

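TNFRSF10B, TNFRSF21, TNFRSF12A and FADD kept their direction and an adjusted p under 0.05 in limma under all 11 alternatives, with log2 changes of 0.45 to 0.55, -0.73 to -0.63, -0.58 to -0.35 and -0.56 to -0.49. TRADD passed under 6 of the 11; its log2 change was 0.49 without a filter on low values, where it did not pass, and 0.40 to 0.59 with 1 library left out, where it did not pass either. Among the genes that did not pass, the log2 change of TNFRSF1A was 0.0095 after quantile normalization, and with 1 library left out the range was -0.045 to 0.39 for FAS, -0.29 to 0.099 for TNFRSF10A, -0.13 to 0.012 for TNFRSF1A and -0.23 to 0.046 for CFLAR; the cause was not tested. Leaving out 1 library also lowered the calls over all genes, from 2811 to between 1442 and 1539 higher and from 3184 to between 1773 and 2221 lower, and the number of the 10 genes called from 5 to 4; fewer samples enter these fits, and the lone library of a group is assumed to vary like the others. Same-numbered libraries did not deviate together (r = -0.0425 across genes), and with the replicate block 2492 genes were higher, 2883 lower and 5 of the 10 genes called. The same settings were applied to 48 called genes (the pathway lists and AP000879.1), a check added after seeing the data. Of these, 19 passed under every setting and 0 turned direction. Over the 8 pathway lists the settings with all 4 libraries gave 25 to 34 genes higher and 9 to 14 lower. The settings of the report gave 33 and 14, and fewer than these were called with 1 library left out. The low genes had the widest intervals, so changes of any size inside the intervals given for FAS, TNFRSF10A or CFLAR remain compatible with these values.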

Other observations

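Other genes of the same lists, chosen after their values were seen, also changed. The NF-kappaB subunits of the non-canonical branch rose, NFKB2 from 59.4 and 60.7 to 139 and 146 FPKM (limma adjusted p = 0.000285) and RELB from 14.9 and 16.5 to 41.8 and 42.9 FPKM (0.000469). RELA, of the canonical branch, rose less, from 40.5 and 43.7 to 60.4 and 52.1 FPKM (0.0209). RELA shares 9 of 5464 exonic bases with AP001362.2 on the opposite strand. Its call was lost without a filter, without the trend and without either DMSO library or PH replicate 1 (adjusted p = 0.0626 to 0.114 in limma). PEA15, a death effector domain protein that binds FADD and caspase-8, rose from 138 and 147 to 174 and 175 FPKM (0.0116), and lost its call without the trend and without DMSO replicate 1 or either PH library (0.0549 to 0.0702).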
